A study of Homo sapiens with 2 samples.

Results

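The integrated stress genes described here are ATF4 and ATF5, a pair of bZIP transcription factors, and 8 genes known as their targets: DDIT3, DDIT4, TRIB3, ASNS, CHAC1, SESN2, PSAT1 and PHGDH. They were chosen by name, and each of the 10 symbols matched 1 row among the 32738 genes of both count matrices. The cells were Nalm-6, an established human cell line from a B-cell precursor acute lymphoblastic leukemia, and they were profiled by droplet-based single-cell RNA sequencing, in which each captured mRNA is counted once through a unique molecular identifier (UMI). One library came from cells with an inducible construct for ETV6-RUNX1, the fusion transcription factor also called TEL-AML1, and 1 from cells with an inducible luciferase (LUC) construct as the control. Both carried Tet-On constructs and both were given 500 ng/ml doxycycline for 24 h, so doxycycline and the Tet-On system were common to them, and cells without doxycycline were not analysed here. The comparison addresses the effect of overexpressing the fusion, with 1 library for each construct, so an effect of the fusion cannot be told apart from a difference between the cultures or the captures.

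In the integrated stress response, kinases that sense amino acid shortage, unfolded proteins in the endoplasmic reticulum (ER), heme shortage or double-stranded RNA phosphorylate the translation factor eIF2. General translation then slows, while the mRNAs of ATF4 and ATF5 are translated better because of short upstream reading frames in their leaders, so mRNA counts do not measure the activity of the factors. The response supplies amino acids and, when prolonged, includes genes that promote cell death. In acute lymphoblastic leukemia it is known for its link to asparaginase, a drug that removes the amino acid that ASNS makes.

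ATF4 binds DNA as a dimer, often with a C/EBP factor, at a composite site called CARE. The letters TGATGNAA were searched on both strands of RefSeq promoter windows running from 250 bases before to 50 bases after each annotated start, on GRCh38.p14. All 10 genes had at least 1 window, and 2 of them held the letters, against 4.46% of 27305 genes with a window (3.62% of 35116 windows). The stretches around these matches are shown because they are where the promoters of this group carry the letters, with the match in capitals, read 5′ to 3′ on the gene's strand.
ASNS, minus strand, chr7:97872458-97872487: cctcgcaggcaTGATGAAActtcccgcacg
CHAC1, plus strand, chr15:40953251-40953280: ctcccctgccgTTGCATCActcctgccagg
In ASNS the match began 68 bases before the annotated start, on the gene's strand. In CHAC1 it began 209 bases before the start and lay on the opposite strand, so the letters read in reverse complement. The ATF/CRE palindrome TGACGTCA, a different pattern that also begins with TGA, was in the windows of 0 of the 10 genes and of 2.25% of all genes. These are letter matches in short windows and no binding was measured.

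Cells with at least 1000 detected genes and at most 10% mitochondrially encoded UMIs were kept. Of 2503 barcodes with the fusion 2267 were kept, and of 2203 control barcodes 1870. The kept cells held 43941536 and 42762188 UMIs, with medians of 19219 and 22535.5 per cell, so the control cells were deeper. The libraries shared 16 barcodes, of which 7 were kept cells. B-cell precursor markers summed to 3290 CPM (UMIs of a gene per 1000000 UMIs of the kept cells) and 4315 CPM. The 7 erythroid and megakaryocyte markers were at 0 in both libraries, the summed markers of T and NK, myeloid, plasma and stem cells each lay between 4.71 and 21.9 CPM in both, and of the epithelial and fibroblast markers nearly the whole sum came from PDGFRA, at 68.1 and 66.4 CPM.

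ATF5 was the member that differed most between the libraries among those with enough counts, and the others were close to even. Of the 10 genes, 9 reached 10 CPM in at least 1 library, as did 5954 genes in all. None of the 9 was 1.5-fold higher or lower in the ETV6-RUNX1 library, against 0.84% of all measured genes either way. One of the 9, ATF5, passed 1.2-fold, against 8.23% of all measured genes either way and 2.5% that were higher, and 0 of the 9 were lower by as much, against 5.73%. Among the 9, 4 were above and 5 below an even ratio, and the median of their log2 ratios (fusion over control) was -0.09, against -0.04 over all measured genes, 63.8% of which were below 0. With 1 library for each construct there was no replicate check and no test; the intervals given with ratios are exact 95% intervals for a pair of Poisson counts and cover counting error only.

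ATF4 (ENSG00000128272, chromosome 22), the central factor of the response, was at 353 CPM in the ETV6-RUNX1 library and 338 CPM in the control. Its log2 ratio was 0.06, with an interval of 0.03 to 0.10. ATF5 (ENSG00000169136, chromosome 19), its close relative, which is also known for the mitochondrial unfolded protein response, was at 380 and 293 CPM, from 16682 and 12528 UMIs. The ETV6-RUNX1 library was 1.30-fold higher for ATF5 and 1.05-fold higher for ATF4. The log2 ratio of ATF5 had an interval of 0.34 to 0.41, and 1.06% of measured genes had a higher ratio. On this log2 scale the intervals of the paired factors did not overlap. ATF5 overlaps NUP62, a nuclear pore gene on the opposite strand, in the GENCODE annotation of GRCh38, and the sources used here do not say whether counting used the strand. NUP62 had 40.1 and 46.2 CPM and a log2 ratio of -0.20 with an interval of -0.30 to -0.11, so its difference ran opposite to that of ATF5.

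The genes tied to prolonged stress and cell death did not share a direction. DDIT3 (ENSG00000175197, chromosome 12) encodes CHOP, the factor that ATF4 induces under lasting stress. It stood at 69.4 CPM with the fusion and 68.1 CPM in the control, and its log2 ratio of 0.03 had an interval of -0.05 to 0.10, which spans 0. TRIB3 (ENSG00000101255, chromosome 20), a pseudokinase induced by ATF4 and CHOP that dampens both, was at 28.0 and 29.9 CPM, and the interval of its log2 ratio, -0.21 to 0.02, spanned 0 as well. CHAC1 (ENSG00000128965, chromosome 15), which degrades glutathione, was at 8.92 and 10.0 CPM from 392 and 429 UMIs, with a log2 ratio of -0.17 and an interval of -0.37 to 0.03. DDIT3 overlaps MARS and MBD6 on the opposite strand. MARS, a methionyl-tRNA synthetase, was at 31.8 and 31.9 CPM. MBD6 had 9.95 and 8.28 CPM, and its log2 ratio of 0.26 had an interval of 0.06 to 0.47.

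DDIT4 and SESN2, a pair of inhibitors of the growth kinase complex mTORC1, lay on opposite sides of an even ratio. DDIT4 (ENSG00000168209, chromosome 10), also called REDD1 and also induced by hypoxia and glucocorticoids, was at 39.5 CPM with the fusion and 45.0 CPM in the control, a log2 ratio of -0.19 with an interval of -0.28 to -0.09. SESN2 (ENSG00000130766, chromosome 1), a leucine sensor, was at 9.03 and 7.23 CPM from 397 and 309 UMIs. It stayed under 10 CPM in both libraries and so is not among the 9 genes. Its log2 ratio of 0.32 had an interval of 0.10 to 0.54, and with it 2 of all 10 genes passed 1.2-fold. Of 4 measured genes known for glucocorticoid response, 3 were lower by 1.2-fold or more, against 5.73% of all measured genes. They were CXCR4, NR3C1 and FKBP5, at log2 ratios of -0.33, -0.32 and -0.26, the last only just past 1.2-fold, and IRS2, the other one, was at 0.03. Among 7 measured hypoxia genes the median was -0.02. One of them, MXI1, was higher by 1.2-fold or more, at 0.46, against 2.5% of all measured genes.

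The enzymes of amino acid synthesis were at or slightly below the control. ASNS (ENSG00000070669, chromosome 7), asparagine synthetase, was at 15.2 and 14.5 CPM, with a log2 ratio of 0.07 and an interval of -0.09 to 0.23. PHGDH (ENSG00000092621, chromosome 1), the first enzyme of serine synthesis from a glycolytic intermediate, was at 117 CPM with the fusion and 125 CPM in the control. PSAT1 (ENSG00000135069, chromosome 9), the next enzyme of that route, was at 61.2 and 69.1 CPM. Both serine enzymes were lower with the fusion, by log2 ratios of -0.10 (interval -0.15 to -0.04) and -0.17 (interval -0.25 to -0.10). PSPH, the last enzyme of the route, was at 18.8 and 19.1 CPM. Pseudogenes of ATF4, ASNS and PSAT1 were not rows of the matrices, and how reads shared with them were counted was not tested.

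**Figure D1:**
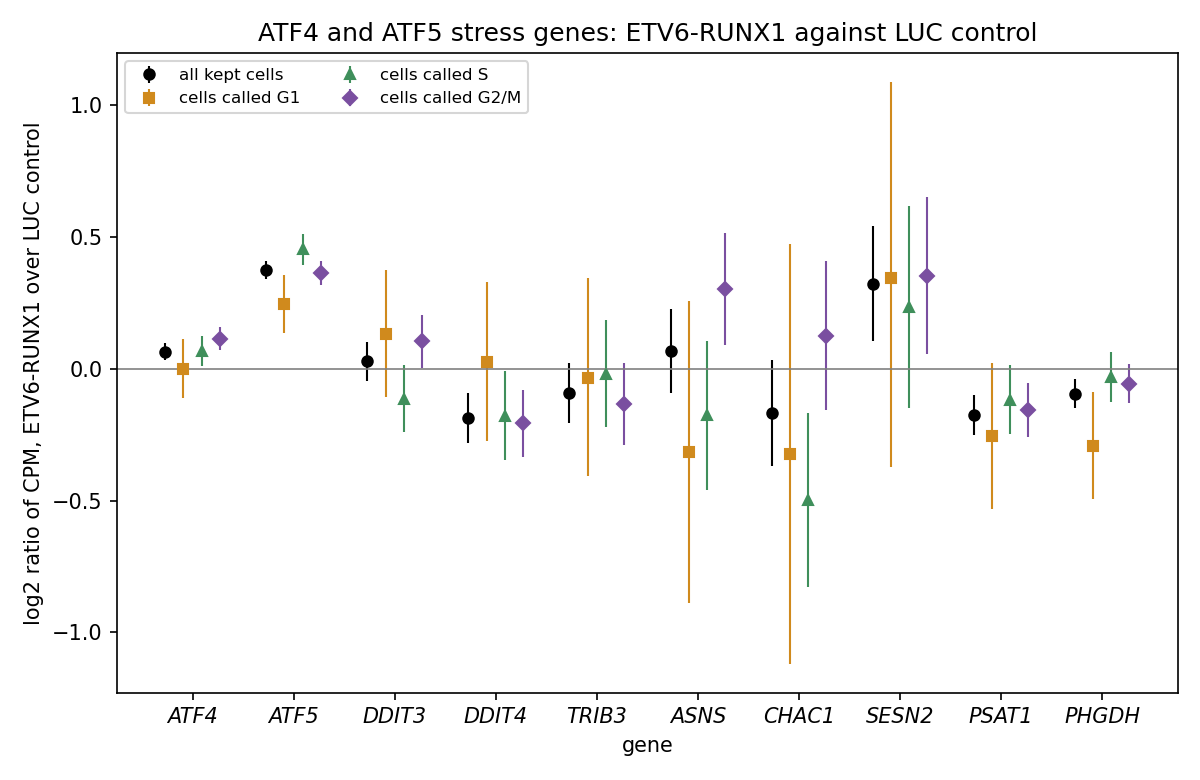
Log2 ratio of CPM in the ETV6-RUNX1 library over the LUC control library for each of the 10 genes, over all kept cells (black) and over the cells called G1, S or G2/M, with exact 95% counting intervals as bars. ATF5 lay above 0 over all cells (0.37) and in each called state (0.24, 0.45 and 0.36), and the bars of ASNS, CHAC1 and SESN2 are wide in G1.

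The difference in ATF5 was seen across the distribution over cells. For this, each cell was thinned at random to 8700 UMIs, which gives every cell the same depth and left out 224 and 84 shallower cells, so that 2043 ETV6-RUNX1 and 1786 control cells remained. ATF5 had a mean of 3.34 UMIs per thinned cell with the fusion and 2.52 in the control, and a median of 3 against 2. It was without a UMI in 12.1% of ETV6-RUNX1 cells (exact binomial interval 10.7 to 13.6%) and in 18% of control cells (16.3 to 19.9%). Before thinning, ATF5 had a UMI in 93.9% and 92.7% of kept cells, at the unequal depths given above. The line holds no second cell type that should lack these genes, so free RNA in the droplets has no background share to be read against.

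ATF5 was spread more widely over cells than ATF4 in both libraries. ATF4 averaged 3.13 UMIs per thinned cell with the fusion and 2.96 in the control. Its Fano factor, the variance divided by the mean and 1 for pure counting noise, was 1.49 and 1.44, and that of ATF5 was 2.42 and 2.22. ATF4 was without a UMI in 7.88% and 8.34% of thinned cells, where a Poisson distribution of the same mean gives 4.37% and 5.16%. For ATF5 the Poisson shares would be 3.54% and 8.06%, against the 12.1% and 18% counted.

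Beyond counting noise, CHAC1 varied most for its mean in both libraries, and DDIT4, TRIB3 and DDIT3 also stood high. The excess variance, (variance - mean) divided by the squared mean, had a median of 0.109 over all measured genes in the ETV6-RUNX1 library and 0.0875 in the control. CHAC1 reached 1.87 and 1.60, above 99.3% and 99.1% of measured genes. DDIT4 was at 1.31 and 0.882, TRIB3 at 0.775 and 1.54, and DDIT3 at 0.726 and 0.689, all above 94.9% of measured genes or more. SESN2 reached 0.949 in the control, above 97.5% of measured genes, and 0.357 with the fusion, above 83.1%. By this measure ATF4 was nearest to the middle, above 60.6% and 63.5% of measured genes. PHGDH came next in the control, at 65.6%, and stood at 83.4% with the fusion. CHAC1 had a UMI in 7.39% of ETV6-RUNX1 and 8.51% of control cells after thinning, with at most 3 and 4 UMIs in a cell, so its excess rests on few cells. These ranks were not matched for level, and by the Fano factor the order differed. ATF5 was then above 98.9% and 98.8% of measured genes, ATF4 above 96.0% and 96.3%, and CHAC1 above 86.9% and 88.4%.

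For the other genes the share of thinned cells with a UMI followed the ratios of their levels. PHGDH was seen in 54.6% of ETV6-RUNX1 cells (interval 52.4 to 56.8%) and 60.8% of control cells (58.4 to 63.0%), and before thinning in 74.9% and 82.8%. SESN2 was seen in 7.64% (6.52 to 8.87%) and 5.10% (4.12 to 6.22%), and before thinning in 14.9% and 13.9%. For these 2 genes the intervals did not overlap. PSAT1 was seen in 37.7% and 41.7% of thinned cells, DDIT3 in 38.9% and 38.4%, DDIT4 in 25.1% and 27.6%, TRIB3 in 19.2% and 20.9%, and ASNS in 11.6% and 11.1%, and for each of these 5 the intervals overlapped.

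**Figure D2:**
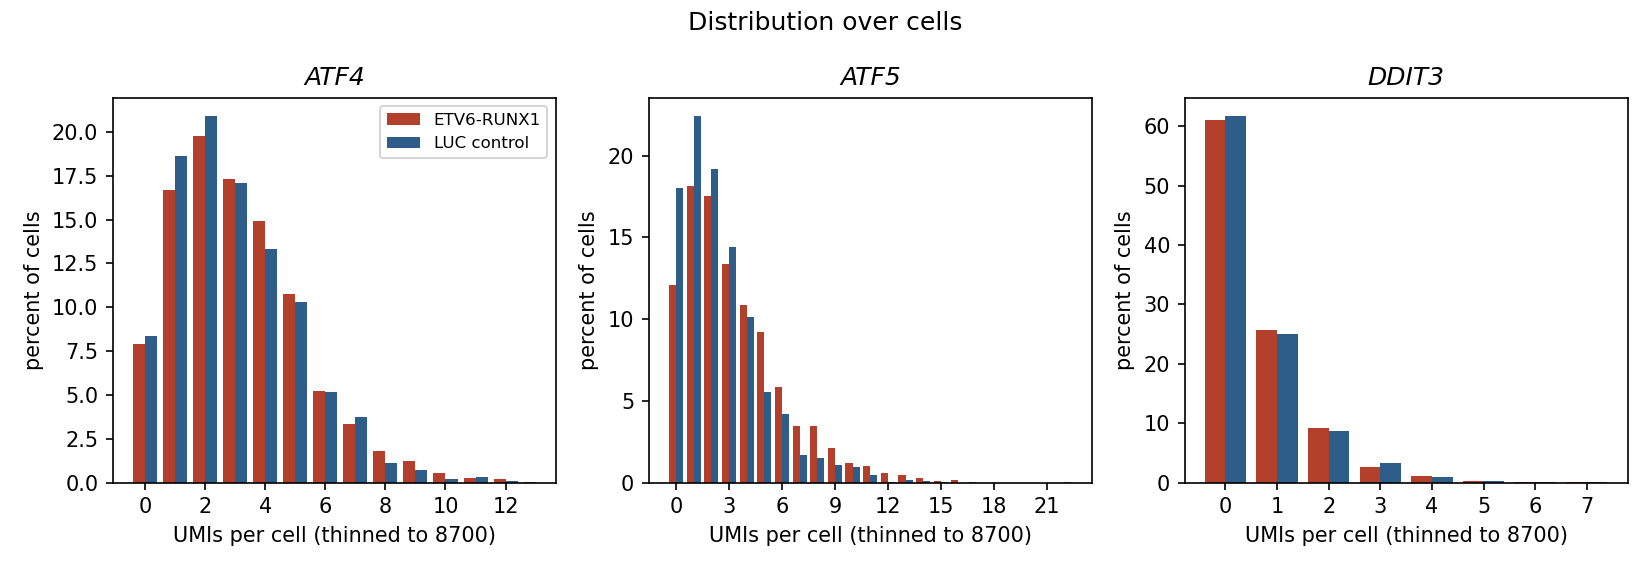
Percent of cells (vertical axis) with each number of UMIs (horizontal axis) for ATF4, ATF5 and DDIT3 in 2043 ETV6-RUNX1 and 1786 LUC control cells thinned to 8700 UMIs. The bars of the libraries nearly coincide for ATF4 and DDIT3, while for ATF5 the control has more cells at 0 (18% against 12.1%).

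Nearly every cell held mRNA of some of these genes. A thinned cell showed a median of 4 of the 10 in each library, with a 10th to 90th percentile of 2 to 6 in both. The summed UMIs of the 10 genes had a median of 8 in both libraries, a 10th to 90th percentile of 4 to 17 with the fusion and 3 to 15 in the control, and a maximum of 33 and 44. Only 8 ETV6-RUNX1 cells (0.392%) and 3 control cells (0.168%) had none of them.

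All 10 genes were higher in cells called G2/M than in cells called G1, in both libraries, as were 67.0% of all measured genes with the fusion and 69.4% in the control. The counting interval of the ratio spanned 0 for SESN2 with the fusion and for ASNS, CHAC1 and SESN2 in the control. Each thinned cell was called G1, S or G2/M from scores of S phase and G2/M genes, none of which is among the 10, and CPM was then taken from the unthinned counts. With the fusion, 16.8% of cells were called G1, 36.8% S and 46.5% G2/M, and in the control 13.0%, 39.6% and 47.4%. The median log2 ratio of G2/M over G1 was 0.55 over the 10 genes in the ETV6-RUNX1 library, against 0.10 over all measured genes, and 0.47 in the control, against 0.11. At least 1.5-fold higher in G2/M were 5 of 10 with the fusion, against 7.68% of all measured genes, and 2 of 10 in the control, against 7.19%. At 1.2-fold the counts were 9 and 10 of 10, against 27.7% and 27.9%. Between S and G1, 6 of 10 were at least 1.2-fold higher in S in each library, against 22.5% of all measured genes with the fusion and 23.3% in the control.

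Among the enzymes, PHGDH went from 70.6 CPM in G1 to 119 in S and 130 in G2/M with the fusion, and from 86.5 to 121 and 136 in the control. PSAT1 went from 39.2 to 61.9 and 67.1 CPM with the fusion, and from 46.8 to 67.2 and 74.8 in the control. For both serine enzymes the step from G1 to S was larger than that from S to G2/M, in both libraries. ASNS stood at 9.35, 13.3 and 18.3 CPM in the ETV6-RUNX1 library, where the log2 ratio of G2/M over G1 was 0.97. In the control it was at 11.6, 15 and 14.9 CPM, and the interval of its log2 ratio of G2/M over G1, -0.07 to 0.80, spanned 0.

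ATF4 was at 255, 345 and 391 CPM in G1, S and G2/M with the fusion, and at 255, 329 and 361 in the control. ATF5 was at 288, 387 and 399 CPM with the fusion, and at 243, 283 and 311 in the control. The libraries thus had the same ATF4 level in G1, where the log2 ratio between them was 0.00 with an interval of -0.11 to 0.11, and 0.11 in G2/M with an interval of 0.07 to 0.16. For ATF5 the log2 ratio between the libraries was 0.24 in G1 (interval 0.13 to 0.36), 0.45 in S (0.39 to 0.51) and 0.36 in G2/M (0.32 to 0.41). The intervals for G1 and S did not overlap, but they cover counting error only. ATF5 varied over thinned cells beyond counting noise, with Fano factors of 2.42 and 2.22, and this spread is not in the intervals. Whether the ATF5 difference depended on the called state was not tested, and no test over libraries was possible.

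In the control, CHAC1, DDIT3 and ASNS did not rise from S to G2/M, while with the fusion each was higher in G2/M than in S. CHAC1 in the control was highest in S, at 12.7 CPM, against 6.27 in G1 and 9.14 in G2/M. With the fusion it was at 5.01, 8.97 and 9.96 CPM, and the interval of its log2 ratio of G2/M over S, -0.17 to 0.48, spanned 0. Its log2 ratio between the libraries was -0.50 in S, from 130 and 196 UMIs, with an interval of -0.83 to -0.17, and 0.12 in G2/M with an interval of -0.16 to 0.41. DDIT3 stood at 59.4, 65.6 and 73.8 CPM with the fusion, and at 54.2, 71.0 and 68.7 in the control. In the control its log2 ratio of G2/M over S was -0.05, with an interval of -0.16 to 0.06. That of ASNS was -0.01, with an interval of -0.26 to 0.24, so both intervals spanned 0. DDIT4 was level between G1 and S with the fusion, at 36.7 CPM in each, and reached 43.2 in G2/M, while the control had 36.1, 41.5 and 49.9 CPM. TRIB3 went over the states from 23.2 to 30.0 CPM with the fusion and from 23.7 to 32.9 in the control. SESN2 went from 7.68 to 9.78 CPM and from 6.05 to 7.66, and the interval of G2/M over G1 spanned 0 in both libraries.

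Depth and the share of ribosomal protein mRNA moved with the called state. Median UMIs per cell were 16494 in G1, 19118 in S and 22518 in G2/M with the fusion, and 18549, 21620.5 and 25632.5 in the control. The 87 ribosomal protein genes took 46.5% of UMIs in G1 and 42.6% in G2/M with the fusion, and 45.2% and 41.2% in the control. Their part in the state differences of the 10 genes was not tested. The states are ranges of a score: 27.6% and 27.0% of cells lay within 0.05 of a boundary. Without those cells, 19 of the 20 ratios of G2/M over G1 were above 0, and DDIT4 with the fusion was at -0.01.

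**Figure D3:**
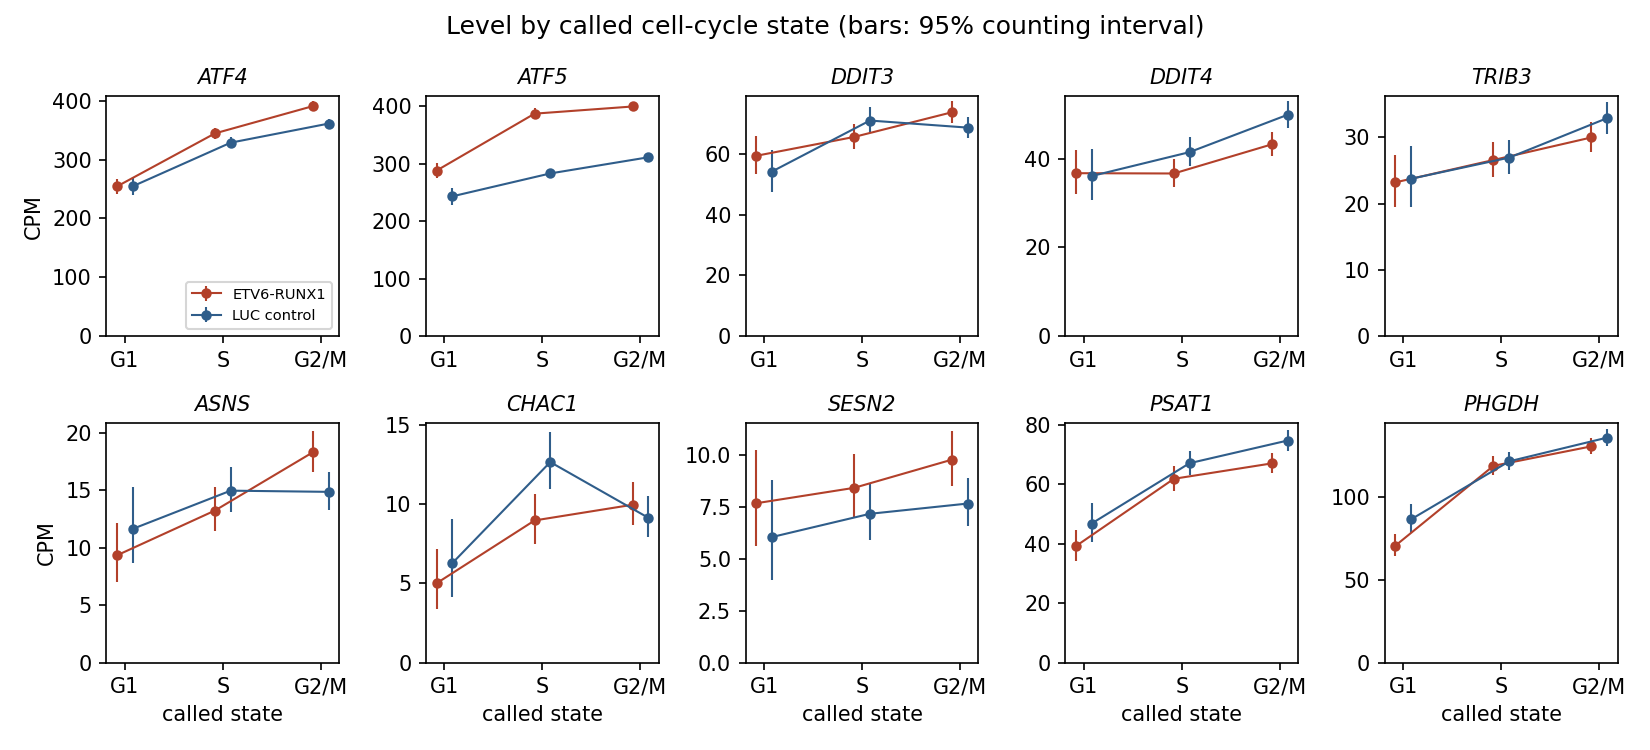
CPM of each of the 10 genes (vertical axes, starting at 0) in cells called G1, S and G2/M, in the ETV6-RUNX1 library (red) and the LUC control library (blue), with exact 95% Poisson counting intervals. The level in G2/M is above that in G1 in all 20 pairs of points, and CHAC1 in the control peaks in S at 12.7 CPM.

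The 10 genes varied together from cell to cell, weakly for each pair and in the same direction for all. Pearson's r was taken over log(1 + UMIs) of the thinned cells of a library, which share that library and 1 depth. All 45 pairs had an r above 0 in both libraries, with a median of 0.071 over 2043 ETV6-RUNX1 cells and 0.069 over 1786 control cells. Over 15952776 pairs of genes at 10 CPM or more in both libraries, the median r was 0.0023 and 0.0018, and the 99th percentile 0.069 and 0.067. Of the 45 pairs, 24 and 23 lay above that percentile, which is over pairs not matched to them for level. With the cell-cycle scores and depth regressed out, the medians were 0.066 and 0.058 and all 45 pairs remained above 0. At these low counts an r of a few hundredths for a single pair is no finding by itself.

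In both libraries the 3 highest r were those of ATF5 with ATF4, PHGDH and PSAT1. ATF4 and ATF5 had an r of 0.25 with the fusion and 0.20 in the control. Of all gene pairs, which were not matched to them for level, 0.014% and 0.019% had a higher r. After removing the counting noise expected from Poisson sampling, ATF4 with ATF5 had a correlation of 0.60 and 0.61. It was not the highest in this form, where PSAT1 with PHGDH had 0.86 and 0.93. CHAC1 with SESN2, on few UMIs, came out at 1.92 and 1.23, values that a correlation cannot take, so this form is unsteady at low counts. ATF5 had an r of 0.20 and 0.16 with PHGDH, and of 0.18 and 0.16 with PSAT1. The serine enzymes had an r of 0.17 and 0.11 with each other, which was the next highest with the fusion. In the control the next highest were ATF4 with CHAC1 (0.13), DDIT3 with CHAC1 (0.12) and ATF5 with TRIB3 (0.12). ATF4 had an r of 0.10 and 0.070 with PHGDH, which was 0.061 and 0.038 with the cell-cycle scores and depth regressed out, while that of ATF5 with PHGDH was then still 0.17 and 0.14. DDIT3 had its highest r with CHAC1 in both libraries, 0.11 and 0.12, and an r of 0.022 and 0.030 with PHGDH.

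**Figure D4:**
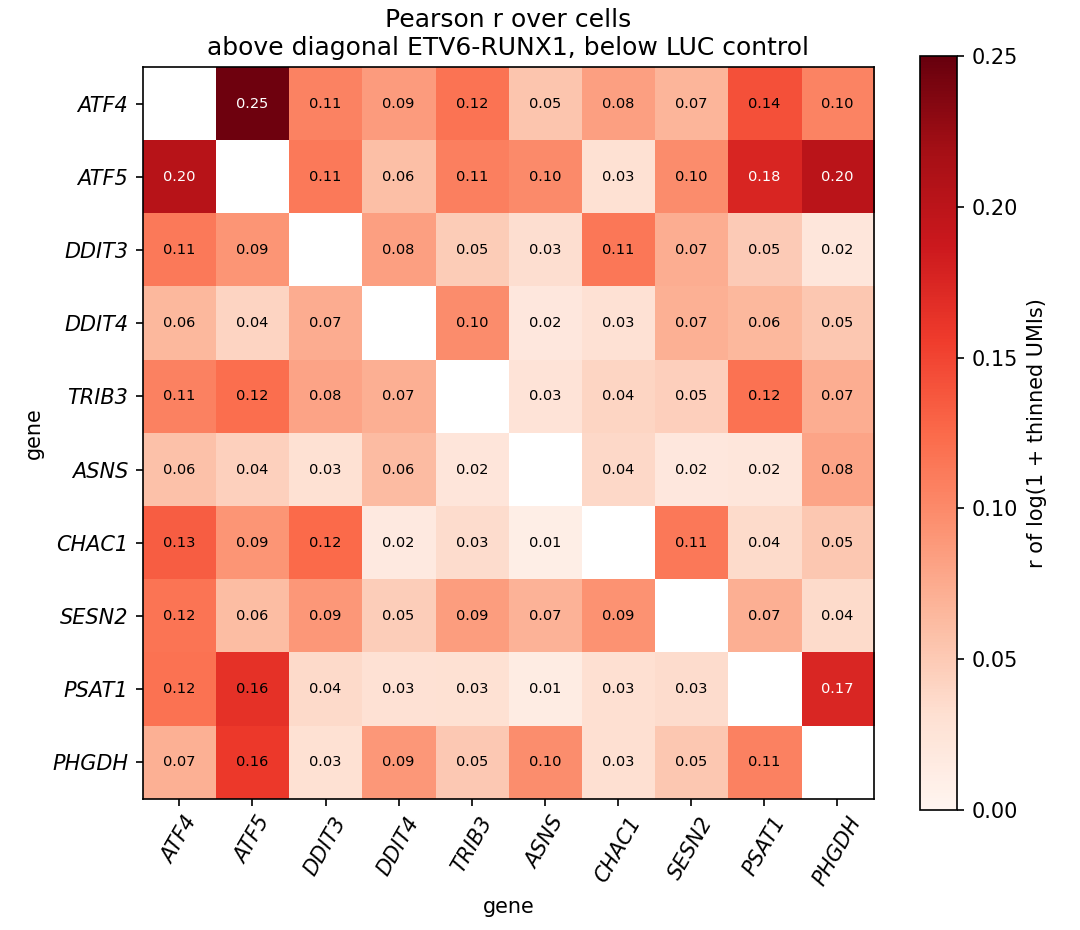
Pearson r over cells for each pair of the 10 genes, with ETV6-RUNX1 above the diagonal (2043 cells) and the LUC control below it (1786 cells); colour gives r from 0 to 0.25. All 45 pairs are above 0 in each library, and the darkest cells are ATF4 with ATF5 and ATF5 with PHGDH and PSAT1.

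The co-variation was also read as levels. Cells were split into 4 groups of about equal size by the mean of the other 9 genes, and each gene was then compared between the highest and lowest group, with the cell-cycle state not held fixed and without the same split for all other genes. ATF5 averaged 2.31 UMIs in the lowest group and 4.55 in the highest with the fusion, and 1.88 and 3.41 in the control. ATF4 averaged 2.40 and 3.94 UMIs with the fusion, and 2.47 and 3.82 in the control. PSAT1 was 2.54-fold higher in the highest group with the fusion and 1.53-fold higher in the control. TRIB3 was 2.68-fold and 1.97-fold higher. SESN2, from 0.0489 to 0.149 and from 0.0313 to 0.101 UMIs per cell, had the largest fold in both libraries, 3.04 and 3.21, on few UMIs.

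Genes outside the 10 were then ranked by how they varied with the mean of the 10. Each gene at 10 CPM or more in both libraries was ranked by the lower of its r values in the libraries with the mean of the 10 standardised genes. The first was EIF1, a factor that guides start codon choice, with an r of 0.28 and 0.25. SLC3A2, the shared chain of several amino acid transporters, had 0.23 in both libraries. MTHFD2, a mitochondrial one-carbon enzyme, had 0.25 and 0.23. TUBB, TUBA1B, HIST1H4C, H2AFZ, HERPUD1, HMGB2, EIF2S2, HMGB1 and GARS completed the 12. Of these 12, 5 are in the lists of the stress response and its targets and HMGB2 is in the list of G2/M genes. The 6 at the other end were the ribosomal protein genes RPL19, RPS19, RPS27A, RPLP1, RPS12 and RPL34, with r between -0.17 and -0.13.

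With the cell-cycle scores and depth regressed out, the tubulin, histone and HMG genes left the first 12, and EIF4EBP1, GPT2, PCK2, PSPH, HSPA5 and CEBPB took their places. This form was added after the first was seen. EIF1 remained first, at 0.27 and 0.25, and SLC3A2 stood at 0.20 and 0.22. EIF4EBP1, a translation repressor, was at 0.18 and 0.15, GPT2, an alanine aminotransferase, at 0.15 and 0.14, and PCK2, the mitochondrial phosphoenolpyruvate carboxykinase, at 0.16 and 0.13. CEBPB, a dimer partner of ATF4, was at 0.12 and 0.15. Of these 12, 10 belong to 8 lists of genes of the stress response and its targets, whose 103 genes that reached 10 CPM in both libraries were among 5641 ranked. The lists were eIF2 and its regulators, bZIP partners, amino acid transporters, tRNA synthetases, the groups of amino acid enzymes, other ATF4 and CHOP targets, and ER chaperones. The mTORC1 and mitochondrial unfolded protein response lists were not counted, and all lists were chosen with earlier results known. None of the 12 differed by 1.2-fold between the libraries, against 8.23% of all measured genes that did. SLC3A2 was nearest, with 78.5 and 93.0 CPM, a log2 ratio of -0.24.

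**Figure D5:**
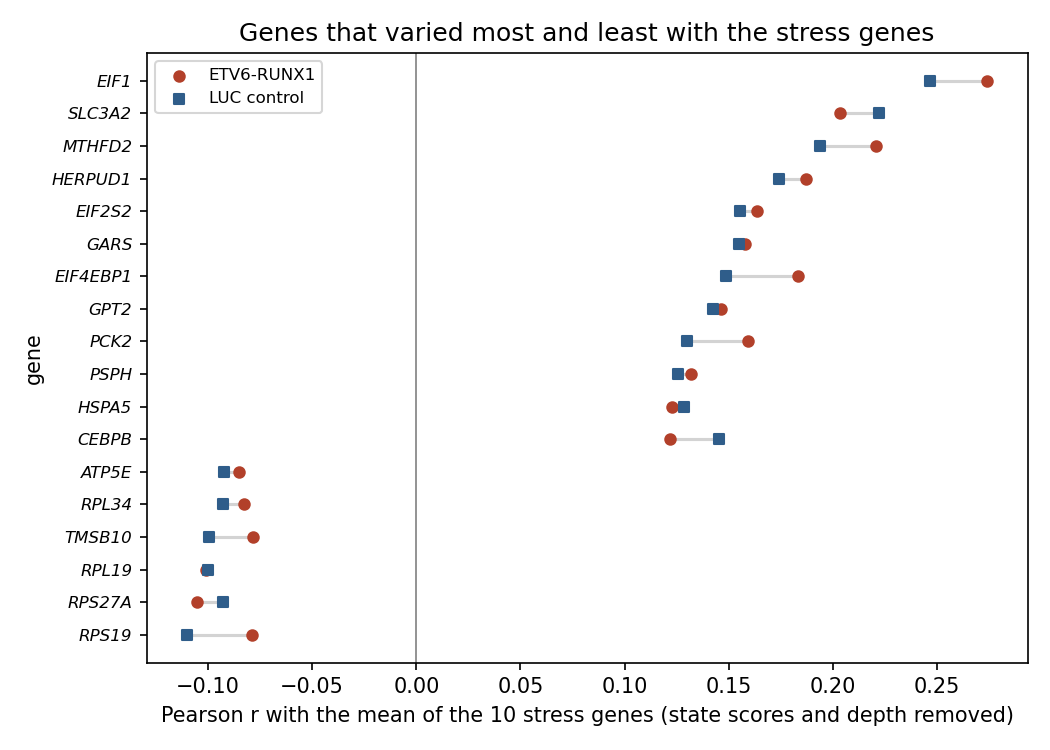
Pearson r of single genes with the mean of the 10 stress genes over thinned cells, cell-cycle scores and depth regressed out, in the ETV6-RUNX1 library (circles) and the LUC control library (squares); grey lines join the libraries. EIF1, SLC3A2 and MTHFD2 are highest in both, and the 6 lowest genes lie between -0.11 and -0.08.

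The genes nearest to each factor were then taken singly. With scores and depth regressed out, ATF5 had its highest r outside the 10 genes with EIF1 (0.25 and 0.23), EIF4EBP1 (0.19 and 0.17) and MTHFD2 (0.17 and 0.16). ATF4 had its highest with HERPUD1, an ER-associated degradation gene (0.15 in both), the noncoding RNA SNHG7 (0.14 in both) and EIF1 (0.14 and 0.12). PMAIP1, which encodes the cell death protein NOXA, was also among the first 8, with 0.12 and 0.11. The lowest r of ATF5 was with NUP62, its overlapping neighbour, at -0.10 and -0.091. With ATF4, NUP62 had -0.020 and -0.018. Whether counting assigned reads of 1 of the neighbours to the other was not tested.

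Lists of related genes were set beside the 10 in the same way. Of all measured genes, 8.23% passed 1.2-fold either way and 63.8% were below an even ratio. Of 20 cytosolic aminoacyl-tRNA synthetases, which charge tRNAs and include many ATF4 targets, all were measured, 0 passed 1.2-fold, and the median log2 ratio was -0.05. HARS, FARSB and EPRS were farthest, at -0.20, -0.17 and -0.17. From cell to cell, with scores and depth regressed out, 8 of the 20 (AARS, EPRS, GARS, IARS, MARS, SARS, TARS and YARS) had an r with the mean of the 10 above the 95th percentile of all genes in both libraries. Over all 5641 genes 1.47% did so.

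Of 6 measured amino acid transporters, 0 passed 1.2-fold, against 8.23% of all measured genes, and the median log2 ratio was -0.06. SLC3A2, SLC7A5 and SLC1A5 were above the 95th percentile of r in both libraries, against 1.47% of all 5641 genes. Of 9 measured serine, glycine and one-carbon enzymes outside the 10 genes, 8 were below an even ratio, against 63.8% of all measured genes. Their median was -0.08, against -0.04. SHMT1, at -0.27, was the 1 lower by 1.2-fold or more, against 5.73% of all measured genes. MTHFD1L and MTHFD1 were at -0.22 and -0.20. MTHFD2, PSPH and SHMT2 were above the 95th percentile of r in both. Of 10 measured proline, aspartate and sulfur amino acid enzymes, GCLM and ALDH18A1 were lower by 1.2-fold or more, against 5.73% of all measured genes. They were at -0.33 and -0.31, and ASS1 was at 0.18.

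The upstream machinery stood near the middle. Of 15 measured genes for eIF2, its kinases, phosphatase regulators and the exchange factor eIF2B, 0 passed 1.2-fold, against 8.23% of all measured genes. Their median was -0.05, and NCK1 was lowest at -0.22. Of 11 measured bZIP partners of ATF4, 8 were above an even ratio, while 63.8% of all measured genes were below it. Their median was 0.04, and NFE2L2, the regulator of the oxidative stress response, was lowest at -0.35. Of 15 measured other targets of ATF4 and CHOP, 0 passed 1.2-fold, against the same 8.23%. KLHL24, SQSTM1 and XPOT were at 0.22, -0.19 and -0.18. EIF4EBP1, HERPUD1, PMAIP1, STC2 and VLDLR among these targets were above the 95th percentile of r in both libraries, against 1.47% of all 5641 genes.

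Related stress lists gave these values. Of all measured genes, 8.23% passed 1.2-fold either way, 5.73% were lower by as much, and 63.8% were below an even ratio. Over 5641 genes, 1.47% were above the 95th percentile of r in both libraries. Among 20 ER chaperones and degradation genes the median was -0.06. XBP1, the factor of another arm of the ER stress response, had 185 and 246 CPM and a log2 ratio of -0.41, SEL1L was at -0.33 and EDEM1 at 0.30. HSP90B1, HSPA5, PDIA6 and SDF2L1 were above the 95th percentile of r with the 10 genes in both libraries. Of 13 genes of the mitochondrial unfolded protein response, a process for which ATF5 is known, 0 passed 1.2-fold and the median was -0.09, with TRAP1, HSPD1 and HSPE1 at -0.20, -0.15 and -0.15. None of them was above the 95th percentile of r in both libraries. Of 22 measured genes of the mTORC1 pathway, the target of DDIT4 and SESN2, the median was -0.01, and SEH1L and MIOS, at -0.27 and -0.28, were lower by 1.2-fold or more. In that list 0 of 21 genes at 10 CPM in both libraries passed the 95th percentile of r in both. Of 14 measured genes of cholesterol and fatty acid synthesis 13 were below an even ratio, against 63.8% of all measured genes. Their median was -0.19, with MSMO1 lowest at -0.43. Of the 14, 4 were lower and 1 higher by 1.2-fold or more, against 5.73% and 2.5% of all measured genes. Of 13 measured p53 targets 8 were above an even ratio, with a median of 0.06, and FDXR was lowest at -0.27.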

How the data were processed

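The deposited matrices hold unnormalised counts of UMIs for each gene in each barcode, which the authors made with Cell Ranger 3.0.2 on hg19, per the submitters' processing notes. The sources used here do not say whether counting used the strand. No hg19 annotation was used, so genes are given by symbol and identifier, and chromosomes by GENCODE on GRCh38. The 10 genes and all lists were chosen with earlier results of these data known.

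UMIs were summed over kept cells and divided by the library total (CPM). A gene was called measured where either library had 10 CPM or more; 10 CPM equals 439 and 428 UMIs. Cells were thinned with scanpy 1.11.5 (seed 0), and cell-cycle scores used genes seen in at least 3 cells. Scrublet called 14 and 16 doublets, which were left in. Poisson and Clopper-Pearson intervals came from scipy 1.17.1, numpy 2.4.6 and pandas 2.3.3 in python 3.11.15. Ratios with their intervals were tested on simulated Poisson counts, which hold no spread between cells. Excess variance and noise-corrected correlations were tested on simulated cells, more numerous than those here and at means above those of CHAC1 and SESN2. All 10 genes were named, up to 3 genes per other list with the largest log2 ratio, and the 12 highest and 6 lowest genes by r with the mean of the 10. Genes above the 95th percentile of r, those at 1.2-fold, neighbours and genes nearest to ATF4 or ATF5 alone were named after their values were seen. CD24, CASP8AP2, CASTOR1, DELE1, HBXIP, JCHAIN, MLF1IP, TIGAR, TRAC and UHRF1 matched no row of the matrices and were not analysed here. Other scalings, cell filters, states, floors and correlation measures were tried as alternatives.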

Additional observations from a re-analysis of the deposited data

How the results depend on the processing

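Of the 10 genes, none that reached the floor in use passed 1.5-fold under any of the 14 alternatives run; SESN2, under the floor, was at a log2 ratio of 0.59 in thinned cells, just past 1.5-fold. The count past 1.2-fold was 1 of 9 (ATF5, higher) in the main form. In cells called G1 only it was 2 of 8 (ASNS and PHGDH, both lower, against 26.4% of all measured genes either way). In cells called S only it was 2 of 9 (ATF5 higher and CHAC1 lower, against 16.0%). In cells called G2/M only it was 2 of 8 (ATF5 and ASNS, both higher, against 8.82%). With no floor on low counts it was 2 of 10 (ATF5 and SESN2, both higher, against 34.0%). ASNS was thus at -0.32 in G1 and 0.30 in G2/M. ATF5 stayed above 0 in all 13 forms of its ratio, from 0.24 to 0.45, and SESN2 from 0.23 to 0.59. PSAT1, PHGDH and TRIB3 stayed below 0 in all 13. ATF4 (lowest -0.00), DDIT3 (lowest -0.11) and ASNS (lowest -0.32) were above 0 in 12, 12 and 10 of 13, and CHAC1 and DDIT4 in 1 of 13 (highest 0.12 and 0.03). The median of the measured genes of the 10, -0.09, was 0.02 in cells called G2/M only and 0.03 with a floor of 50 CPM, which tested 5 of them. Other scalings raised every ratio by 0.04 to 0.05. The median r between the 10 genes lay between 0.057 and 0.095 with the fusion and between 0.056 and 0.090 in the control. No paired analysis was possible because each construct had 1 library and the labels carry no replicate numbers. Genes near 10 CPM had 309 to 668 UMIs per library (SESN2, CHAC1 and ASNS), and in cells called G1 27 to 56, where the intervals of all of them spanned 0.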

Other observations

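The 10 genes were compared by the mitochondrial share of a cell's UMIs. Cells of each library were split into 4 groups of about equal size by that share, and the highest group was compared with the lowest. The counting interval of the ratio left out 0 for 5 of the 10 genes with the fusion and 7 in the control. The same count over all measured genes was not taken, so these counts cannot be read as particular to the 10 genes. In the control, DDIT4 had 59.97 CPM in the lowest group and 28.5 CPM in the highest, giving a log2 ratio of -1.07 with a counting interval of -1.28 to -0.87. With the fusion it had 45.2 and 30.9 CPM and a log2 ratio of -0.55 with an interval of -0.76 to -0.34. TRIB3 was lower in the highest group as well, by log2 ratios of -0.35 in both libraries, and so were ATF5, at -0.16 with the fusion and -0.30 in the control, and ATF4, at -0.11 and -0.14. PHGDH and PSAT1 were at -0.29 and -0.19 in the control, and with the fusion at -0.10 and -0.14 with intervals that spanned 0. DDIT3 ran the other way, at 62.6 and 71.2 CPM with the fusion and 60.1 and 70.6 CPM in the control.

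By depth, the counting interval left out 0 for 5 of the 10 genes with the fusion and 4 in the control. Here too the same count over all measured genes was not taken, so these counts cannot be read as particular to the 10 genes. Between the lowest and highest of 4 groups of cells by UMIs, DDIT4 went from 32.6 to 44.5 CPM with the fusion and from 35.2 to 54.4 CPM in the control. PSAT1 was higher in the deepest group by log2 ratios of 0.33 and 0.21, and with the fusion so were ASNS, at 0.52, and ATF4, at 0.29. PHGDH, the serine synthesis enzyme, went from 91.2 to 127 CPM and from 97.7 to 137 CPM. ATF5 was at 381 and 383 CPM in these groups with the fusion and at 276 and 302 CPM in the control, so the ETV6-RUNX1 library was higher in both the shallow and the deep cells.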
